A study of Citrus x limon with 9 samples.

Results

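Cs5g13890, Cs5g13930, Cs5g16770, Cs5g16780 and Cs5g16920 are 5 genes of the Kunitz inhibitor family that are expressed in lemon buds. They were chosen by name and by level, as miraculin-like and 21 kDa seed protein-like genes among the most abundant transcripts of the buds, and they make up 5 of the 22353 genes in the deposited table. Their level was therefore part of the choice and is given here as a description with no test. The large difference of Cs5g16920 between stage 1 and the later stages was also known when the genes were chosen, so it is described with no test as well.

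RNA sequencing was performed on buds of Femminello lemon (Citrus x limon) grafted on trifoliate orange, in trees that were taken through a water deficit that induces flowering. Stage 1 was sampled a week before the water deficit, stage 2 a week after its beginning, and stage 3 a week after irrigation had been resumed, with 3 biological replicates per stage and 9 libraries in all. Each replicate came from its own group, with 3 trees to a group, and the sampled buds were the terminal bud and the 5 buds below it on spring flushes. All stages share the cultivar, the rootstock and the bud positions. No library comes from trees that stayed watered, so date, bud age and water supply cannot be told apart in any difference between the stages. The samples are whole buds, and fewer cells that express a gene and less RNA per cell cannot be told apart.

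Kunitz-type proteins were first described from soybean as inhibitors of trypsin, and most members of the family bind serine proteases and block their active site. They accumulate in seeds, tubers and buds, where they are regarded both as stores of amino acids and as protection against insects and pathogens, and in several plants their transcripts respond to wounding or drought. The 21 kDa seed protein is an abundant albumin of cocoa seeds. Miraculin is a glycoprotein of miracle fruit (Synsepalum dulcificum) that makes sour food taste sweet, and the miraculin-like proteins of citrus are named for their similarity to it, which does not imply that they modify taste.

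The best protein match of Cs5g13890, Cs5g13930 and Cs5g16920 was a 21 kDa seed protein-like protein. Cs5g16770 was matched to a miraculin-like protein of sweet orange and Cs5g16780 to a miraculin-like protein of grapefruit (Citrus x paradisi). Cs5g13890, Cs5g13930 and Cs5g16770 carried the gene ontology process of negative regulation of peptidase activity, and Cs5g16780 and Cs5g16920 carried no process term. The names are not firm for every gene, since the description given to Cs5g16920 in the supplementary data of the study is miraculin 2, against the 21 kDa seed protein-like match in the deposited table. All 5 identifiers carry the prefix of sweet orange chromosome 5 and fall into 3 runs. Cs5g13930 directly follows Cs5g13890 in the table, Cs5g16780 directly follows Cs5g16770, and Cs5g16920 stands between genes of 0 to 5.37 FPKM (fragments per kilobase of transcript and unit of mapped fragments, a level corrected for transcript length and library size). Their neighbours in the table were not highly expressed throughout. Cs5g13880, which precedes Cs5g13890, was listed at 0.19 to 1.27 FPKM.

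The libraries were of similar size in these units, with 625348 to 636775 summed FPKM and 19210 to 20099 genes above 0. The paper gives an approximate number of clean reads for a biological replicate, and the exact number for each library is unknown. In genes with low values in both libraries, the median ratio to stage 1 replicate 2 was 0.978 to 1.1. It was highest in stage 2 replicate 3. Only ratios close to 1 entered this median, so it had to lie near 1 and cannot show whether the libraries were of similar depth. In the genes of at least 500 FPKM, pairs of replicates differed by a coefficient of variation of 2.35 to 3.11% at stage 1, 4.51 to 10.8% at stage 2 and 3.38 to 6.85% at stage 3, and the pairs with stage 2 replicate 3 or stage 3 replicate 3 lay at the upper end of their stage. The 15 listed meristem markers summed to 192 to 201 FPKM at stage 1, 236 to 252 FPKM at stage 2 and 275 to 279 FPKM at stage 3. Most of this sum came from the knotted-1-like 2-like gene Cs3g16460, with means of 77.1, 128 and 144 FPKM at stages 1, 2 and 3, and the SHOOT MERISTEMLESS-like gene Cs2g02590, with 57.3, 70.5 and 70.5 FPKM. Between stage 1 and stage 2 the list as a whole did not move with its sum. Of its 10 tested genes, 2 were called higher and 5 lower at stage 2, beside 21.2% and 17.1% of all genes tested. Against stage 2, 5 were called higher and 0 lower at stage 3, beside 16.2% and 19.8% of all genes. Against stage 1, 3 were called higher and 0 lower at stage 3, beside 14.4% and 12.9%. The WUSCHEL-like gene Cs1g25270 had means of 1.02, 0.06 and 0.817 FPKM at stages 1, 2 and 3. The 24 genes with floral or agamous-like words in their match summed to 169 to 186, 152 to 175 and 154 to 170 FPKM at stages 1, 2 and 3, and 2, 2 and 4 of them were listed at 0 in all libraries of these stages. Most of that sum was 1 AGL19-like gene, Cs5g10050, with means of 122, 114 and 99.0 FPKM, and the SEPALLATA 1-like gene Cs7g11800 had 6.76, 3.66 and 9.76 FPKM. The 8 genes of leaf photosynthesis summed to 2013 to 2067, 3172 to 3876 and 3893 to 4617 FPKM at stages 1, 2 and 3, and 1 of them was listed at 0 throughout stage 1. Most of this sum came from Cs2g03780, with means of 812, 1750 and 2357 FPKM, and Cs6g18680, with 875, 964 and 1020 FPKM. Of the 7 tested, 6 were called higher and 0 lower at stage 2 than at stage 1, beside 21.2% and 17.1% of all genes. At stage 3, 2 were higher and 3 lower than at stage 2, beside 16.2% and 19.8%, so the list did not move with its sum. Compared with stage 1, 5 were higher and 0 lower at stage 3, beside 14.4% and 12.9%. Leaf genes were thus lower at stage 1, where the Kunitz genes described here were mostly higher, and their part in the results was not tested.

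Cs5g13890 was the most abundant transcript of the buds. Its level was 15308, 14995 and 15049.5 FPKM at stage 1, 11746, 12011 and 11755 FPKM at stage 2, and 16051, 15885 and 15683 FPKM at stage 3, and it ranked first of all genes in each of the 9 libraries. The 3 stages did not overlap, with stage 2 lowest and stage 3 slightly above stage 1.

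Cs5g16770, the more abundant of the miraculin-like pair, reached 7449, 7468 and 7422 FPKM at stage 1, 4447, 4392 and 4609.7 FPKM at stage 2, and 5197, 5153 and 5273 FPKM at stage 3. Its rank among all genes was 3 at stage 1 and 4 at stages 2 and 3. Its stages did not overlap either, and stage 3 lay between the others. Cs5g16780, its neighbour, was listed at 3969, 3952 and 4104 FPKM at stage 1, 2879, 2846 and 3217 FPKM at stage 2, and 3141, 3105 and 3118 FPKM at stage 3. Here all stage 1 libraries were above all others, whereas the stage 3 values fell inside the range of stage 2, whose replicate 3 was the highest of the 6 later libraries.

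Cs5g13930, the neighbour of Cs5g13890, had 2240.3, 2216 and 2168 FPKM at stage 1, 1740.3, 1737 and 1677 FPKM at stage 2, and 1414, 1400.1 and 1455 FPKM at stage 3. The order of the stages was a staircase without overlap, and the rank of the gene was 10 at stage 1 and 16 to 17 at the later stages. Cs5g16920 had 1321, 1310.2 and 1309.7 FPKM at stage 1, 67.4, 59.9 and 68.0 FPKM at stage 2, and 35.6, 39.4 and 37.8 FPKM at stage 3. It was therefore an abundant transcript only in the stage 1 libraries, with a rank of 20 to 21 there, 1841 to 2146 at stage 2 and 3428 to 3906 at stage 3.

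**Figure D1:**
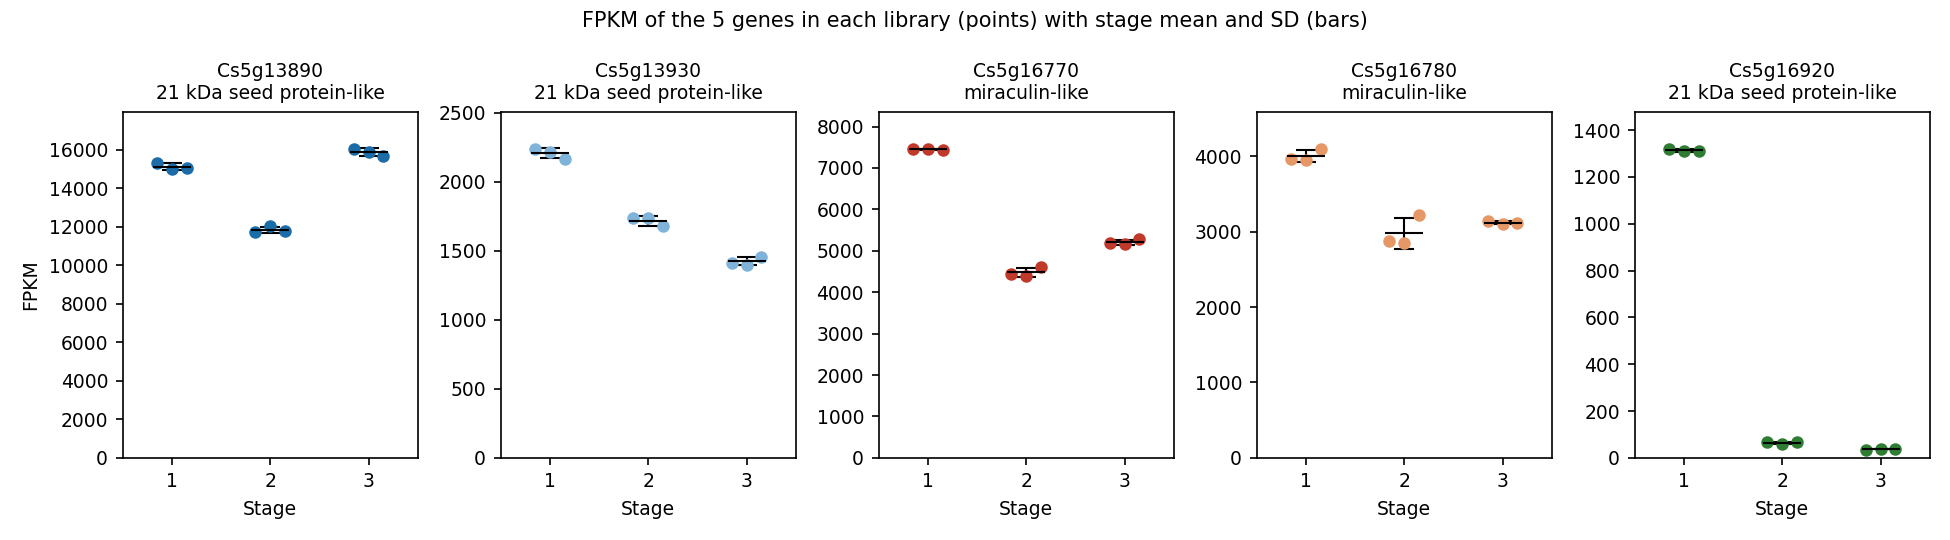
Level in FPKM (vertical axes, each starting at 0 with its own scale) of the 5 genes in the 3 libraries of each stage (points), with the stage mean and SD (bars). Cs5g13890 stands at 11746 to 16051 FPKM in all libraries, and Cs5g16920 stands at 1309.7 to 1321 FPKM at stage 1 and at 35.6 to 68.0 FPKM at the later stages.

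Replicates of a stage lay close together in these genes. The coefficient of variation of the 5 genes was 0.306 to 2.08% at stage 1, 1.27 to 6.97% at stage 2 and 0.579 to 5.2% at stage 3. The largest value at stage 2 belonged to Cs5g16920, followed by Cs5g16780 with 6.89%. In order of the mean over the 9 libraries, Cs5g13890 had rank 1 with 14276 FPKM, Cs5g16770 rank 3 with 5712 FPKM, Cs5g16780 rank 6 with 3370.2 FPKM, Cs5g13930 rank 14 with 1783 FPKM and Cs5g16920 rank 98 with 472 FPKM. No 2 of the first 4 overlapped in any library, so their order was the same in all stages.

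The 5 genes together made up 4.79 ± 0.00533% of the summed FPKM at stage 1, 3.33 ± 0.0329% at stage 2 and 4.04 ± 0.0193% at stage 3 (SD, n = 3 each). Their sum was 29940.0 to 30288 FPKM at stage 1, 20880 to 21326 FPKM at stage 2 and 25568 to 25839 FPKM at stage 3, so the stages did not overlap. The sum includes Cs5g16920, whose higher level at stage 1 was known when it was chosen. Part of the higher share at stage 1 therefore follows from that choice. Cs5g16920 held 0.21% of the summed FPKM in each stage 1 library. It held 0.00948 to 0.0107% at stage 2 and 0.00558 to 0.00624% at stage 3. The higher sum at stage 3 than at stage 2 came mostly from Cs5g13890, whose part of the sum of the 5 was 50.2 ± 0.267% at stage 1, 56.1 ± 0.98% at stage 2 and 61.9 ± 0.442% at stage 3. The stages did not overlap in this part either.

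**Figure D2:**
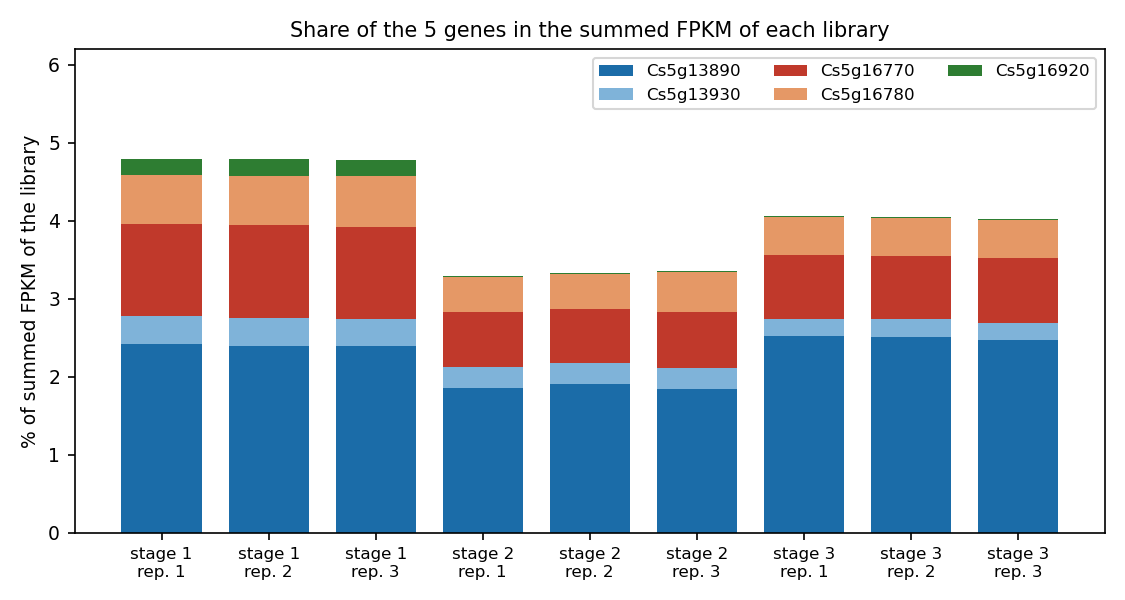
Share of the 5 genes in the summed FPKM of each library (vertical axis, %), stacked by gene, with the 9 libraries in order of stage and replicate. The stacks reach 4.79% at stage 1, 3.33% at stage 2 and 4.04% at stage 3 on average, and the part of Cs5g16920 is visible as a band at stage 1 alone.

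The comparison of stage 2 with stage 1 asks how these transcripts differ between buds under water deficit and buds sampled before it. Fold changes are differences of log2(FPKM + 1) fitted by limma over all genes, with Benjamini-Hochberg adjusted p-values, and a gene was called at an adjusted p under 0.05. Cs5g13890, Cs5g13930, Cs5g16770 and Cs5g16780 were all lower at stage 2, by 21.7 to 39.8% of the stage 1 level. Among all 17729 genes tested, 38.4% were called in this comparison and 17.1% were called lower, and with a fold of at least 2 required as well 7.85% were called, 3.18% higher and 4.66% lower. The median log2 fold change of these 4 genes was -0.40, and that of all genes 0.05.

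Cs5g16770 had 4483 ± 113 FPKM at stage 2 and 7447 ± 22.8 FPKM at stage 1 (SD, n = 3 each). Its log2 fold change was -0.73 with a 95% interval of -0.82 to -0.65, and the adjusted p from limma was 7.13e-08. Cs5g16780 fell to 2980.4 ± 205 FPKM at stage 2, against 4008 ± 83.4 FPKM at stage 1, a log2 fold change of -0.43 (-0.54 to -0.32, limma adjusted p = 4.29e-05). The 2 miraculin-like neighbours did not fall in proportion, since the ratio of Cs5g16770 to Cs5g16780 was 1.51 ± 0.064 at stage 2 and 1.86 ± 0.0436 at stage 1, without overlap between these stages. In the seed protein-like pair, Cs5g13890 fell to 11837 ± 150.3 FPKM at stage 2, against 15117 ± 167 FPKM at stage 1, by 0.35 on the log2 scale with a limma adjusted p of 2.73e-05. Cs5g13930 had 1718 ± 35.8 FPKM at stage 2 and 2208 ± 36.8 FPKM at stage 1, a log2 fold change of -0.36 (limma adjusted p = 2.09e-05). The ratio of Cs5g13890 to Cs5g13930 was 6.89 ± 0.133 at stage 2 and 6.85 ± 0.088 at stage 1, and these ratios overlapped between the stages.

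Cs5g16920 was described without a test. Its mean was 65.1 ± 4.53 FPKM at stage 2 and 1314 ± 6.44 FPKM at stage 1, which is a level 20.2-fold lower at stage 2 and a log2 fold change of -4.32. None of the other 4 genes differed by 2-fold. The ratio of Cs5g16770 to Cs5g16920 was 69.0 ± 3.85 at stage 2 and 5.67 ± 0.0304 at stage 1.

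The calls of Cs5g13890 and Cs5g16780 in this comparison were lost under quantile normalization, which gave differences of 0 and -0.08, because this method gives the same value to all genes of the same rank and Cs5g13890 ranked first in every library. It also gave -0.30 for Cs5g16770 and -0.62 for Cs5g13930, both still called, so the order of their differences depends on the scaling. Scaling each library by its median FPKM kept the calls of all 4 genes.

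**Figure D3:**
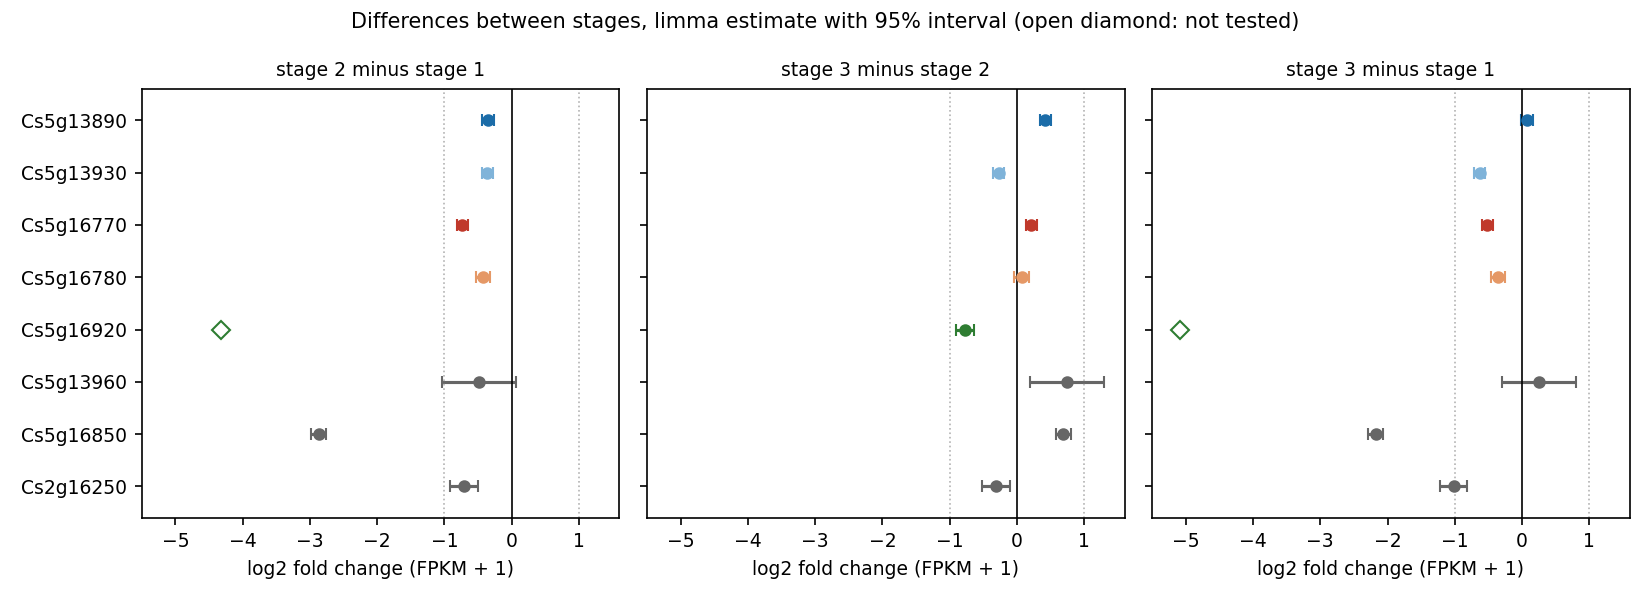
Log2 fold change of FPKM + 1 (horizontal axes, later minus earlier stage) for the 5 genes (coloured) and 3 other Kunitz family genes (grey), with 95% intervals from limma and dotted lines at 2-fold. Open diamonds mark Cs5g16920 at -4.32 and -5.09, which was not tested in these comparisons.

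The comparison of stage 3 with stage 2 covers the return of irrigation, and here the 5 genes went different ways. Cs5g13890 and Cs5g16770 rose, Cs5g13930 and Cs5g16920 fell, and Cs5g16780 was not called. Of all genes tested, 36% were called in this comparison, 16.2% higher and 19.8% lower, and 7.46% were called when a fold of at least 2 was required as well, 4.92% higher and 2.54% lower. None of the 5 genes reached 2-fold.

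Cs5g13890 rose to 15873 ± 184 FPKM at stage 3, against 11837 ± 150.3 FPKM at stage 2, a log2 fold change of 0.42 with a 95% interval of 0.34 to 0.51 (limma adjusted p = 6.14e-06). Its neighbour Cs5g13930 moved the other way, with 1423 ± 28.7 FPKM at stage 3 and 1718 ± 35.8 FPKM at stage 2, and its log2 fold change was -0.27 (-0.36 to -0.19, limma adjusted p = 0.000196). The ratio of Cs5g13890 to Cs5g13930 was 11.2 ± 0.33 at stage 3 and 6.89 ± 0.133 at stage 2, without overlap. The seed protein-like pair thus moved in parallel in the earlier comparison and in opposite directions in this one.

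Cs5g16770 rose to 5208 ± 60.9 FPKM at stage 3, against 4483 ± 113 FPKM at stage 2, a log2 fold change of 0.22 (0.13 to 0.30, limma adjusted p = 0.00101). Cs5g16780 had 3122 ± 18.1 FPKM at stage 3 and 2980.4 ± 205 FPKM at stage 2, a log2 fold change of 0.07 with a 95% interval of -0.04 to 0.18 and a limma adjusted p of 0.307. This result rested on stage 2 replicate 3, without which the log2 fold change was 0.13 and the limma adjusted p 0.0131. Cs5g16920 fell further, to 37.6 ± 1.95 FPKM at stage 3, against 65.1 ± 4.53 FPKM at stage 2, a log2 fold change of -0.77 (-0.91 to -0.64, limma adjusted p = 1.66e-06). It was the largest difference of the 5 genes in this comparison, at 1.73-fold. Under quantile normalization the differences of Cs5g13890, Cs5g13930 and Cs5g16770 were 0, since each held the same place or group of places at both stages, and the fall of Cs5g16920 was still called.

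The comparison of stage 3 with stage 1 asks which transcripts stood at another level after irrigation had been resumed than before the deficit. These comparisons share libraries with those above and are not independent of them. Over all genes 27.3% were called, 14.4% higher and 12.9% lower, and 4.93% were called with a fold of at least 2, 2.69% higher and 2.24% lower. Cs5g13930, Cs5g16770 and Cs5g16780 were called lower at stage 3 and Cs5g13890 was not called. The median log2 fold change of these 4 genes was -0.44, and that of all genes 0.01.

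Cs5g13930 had 1423 ± 28.7 FPKM at stage 3 and 2208 ± 36.8 FPKM at stage 1, a log2 fold change of -0.63 (limma adjusted p = 2.82e-07). Cs5g16770 had 5208 ± 60.9 FPKM at stage 3 and 7447 ± 22.8 FPKM at stage 1, a log2 fold change of -0.52 (limma adjusted p = 1.5e-06), which was -0.30 under quantile normalization and still called. For Cs5g16780 the log2 fold change was -0.36 with a limma adjusted p of 0.00023, a difference of 0 under quantile normalization because its rank was 7 in all libraries of both stages. Cs5g13890 was at 15873 ± 184 FPKM at stage 3 and 15117 ± 167 FPKM at stage 1. The stages did not overlap in this gene, but the log2 fold change of 0.07 had a 95% interval of -0.01 to 0.15 and a limma adjusted p of 0.208, so it was not called. Cs5g16920, given without a test, stood 34.9-fold lower at stage 3 than at stage 1, a log2 fold change of -5.09.

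The likeness of the patterns over the 9 libraries was described by Pearson's r of log2(FPKM + 1). The libraries fall into 3 stages, so r mostly follows the order of the stage means, and no p is given. Cs5g16770 and Cs5g16780 had the most similar patterns of the 5 (r = 0.97), followed by Cs5g13930 and Cs5g16920 (r = 0.95). Cs5g13890 was the least like the others, with r between -0.07 for Cs5g13930 and 0.61 for Cs5g16770.

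Among 10486 genes with a mean of at least 10 FPKM, the genes most like each of the 5 were found. For Cs5g13890 they were Cs1g16180, which encodes a hypothetical protein (r = 0.998), Cs3g23120, a D3-type cyclin-like gene of the cell division cycle (r = 0.995), and orange1.1t04063, a probable inactive receptor kinase (r = 0.995). Cs1g16180 had mean levels of 82.4, 18.8 and 104 FPKM at stages 1, 2 and 3, a deeper dip than that of Cs5g13890. For Cs5g13930 they were the hypothetical protein gene Cs1g25120 (r = 0.997), the late embryogenesis abundant protein D-29-like gene Cs9g01250 (r = 0.997), of a class of proteins that accumulate in drying seeds, and the uncharacterized orange1.1t00628 (r = 0.994). Cs9g01250 had mean levels of 221, 83.7 and 34.6 FPKM at stages 1, 2 and 3.

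Of the genes compared, the one most like Cs5g16770 was another family member, Cs5g16850 (r = 0.998). It was followed by the CONSTANS-LIKE 2-like zinc finger gene Cs6g19280 (r = 0.997), with mean levels of 244, 91.5 and 120.1 FPKM at stages 1, 2 and 3, and by Cs7g07940, which is similar to the response regulator ARR4 of cytokinin signalling in Arabidopsis (r = 0.996). Cs5g16780 had fewer close partners, 3 genes with r of at least 0.99 against 9 to 18 for the others, and these were Cs2g21940 (r = 0.995), Cs9g02990 (r = 0.992) and Cs4g07220 (r = 0.99), all without a named function. The pattern of Cs5g16920 was most like those of the probable nitrite transporter gene Cs7g13190 (r = 0.998), the lectin-related gene orange1.1t05126 (r = 0.995) and the neurofilament heavy polypeptide-like gene Cs2g01760 (r = 0.995). Of these, orange1.1t05126 was the closest in level, with means of 1016, 59.9 and 51.6 FPKM at stages 1, 2 and 3.

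The words miraculin, Kunitz and 21 kDa seed were found in the best matches of 11 genes, the 5 described above and 6 others, and no other gene matched the further inhibitor words that were searched. The miraculin-like genes orange1.1t02833, orange1.1t02835 and orange1.1t04806 were at or near 0, with at most 0.79 FPKM in any library, and were not tested. The 3 tested genes Cs5g13960, Cs5g16850 and Cs2g16250 all have a 21 kDa seed protein-like match. Of these 3, 0 were called higher and 2 lower at stage 2 than at stage 1, beside 21.2% and 17.1% of all genes. Between stage 3 and stage 2, 2 were higher and 1 lower, beside 16.2% and 19.8% of all genes. At stage 3 against stage 1, 0 were higher and 2 lower, beside 14.4% and 12.9% of all genes.

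Cs5g13960 was an abundant family member with a mean of 1621 FPKM, place 16 of all genes, and thus above Cs5g16920. Its level was 1472, 1826 and 1623 FPKM at stage 1, 1441, 1428 and 765 FPKM at stage 2, and 1508, 1738 and 2789 FPKM at stage 3. Replicate 3 was far below the others at stage 2 and far above them at stage 3, and the coefficient of variation reached 31.9% and 34.0% at these stages. The log2 fold change of stage 2 over stage 1 was -0.49 with a 95% interval of -1.04 to 0.06 (limma adjusted p = 0.147). That of stage 3 over stage 2 was 0.74 (0.19 to 1.29, limma adjusted p = 0.0388), and the call was lost without stage 2 replicate 3 (0.44, adjusted p = 0.126) or without stage 3 replicate 3 (0.48, adjusted p = 0.144). It was also lost without stage 1 replicate 3 (adjusted p = 0.0504) or stage 3 replicate 2 (adjusted p = 0.0552). Cs5g13960 and Cs5g13930 lie close to each other in the table, and whether reads were divided between them in mapping was not tested.

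Cs5g16850, which shares the description miraculin 2 with Cs5g16920, was likewise far lower at stage 2 than at stage 1. It was listed at 554, 535.03 and 522 FPKM at stage 1, 71.1, 70.2 and 77.4 FPKM at stage 2, and 118, 117 and 119 FPKM at stage 3. All later libraries were below all stage 1 libraries, and stage 3 was above stage 2 without overlap. The level was 7.37-fold lower at stage 2 than at stage 1 (log2 fold change -2.87, limma adjusted p = 2.47e-11) and 4.54-fold lower at stage 3 than at stage 1 (log2 fold change -2.17, limma adjusted p = 1.78e-10). It was higher at stage 3 than at stage 2, with a log2 fold change of 0.69 (limma adjusted p = 1.08e-06), where Cs5g16920 was lower. The ratio of Cs5g16920 to Cs5g16850 was 2.45 ± 0.0625, 0.893 ± 0.0487 and 0.318 ± 0.0177 at stages 1, 2 and 3, so the order of these genes was turned round after stage 1.

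Cs2g16250, on another chromosome by its identifier, was listed at 372, 334 and 407 FPKM at stage 1, 214, 212 and 253 FPKM at stage 2, and 183, 199 and 165 FPKM at stage 3. Its stages formed a staircase without overlap, as those of Cs5g13930 did. It was lower at stage 2 than at stage 1 with a log2 fold change of -0.71 (limma adjusted p = 0.000106) and lower at stage 3 than at stage 1 with a log2 fold change of -1.02 (limma adjusted p = 8.36e-06). The log2 fold change of stage 3 over stage 2 was -0.31 (limma adjusted p = 0.0217), a call lost without stage 2 replicate 3 (adjusted p = 0.0734), stage 3 replicate 3 (adjusted p = 0.0838) or stage 3 replicate 1 (adjusted p = 0.05001). Cs1g09420 was singled out after its values were seen, because the supplementary data describe it as a 21 kDa seed protein while its best match is a hypothetical protein. It was a weakly expressed gene with 24.1 ± 2.22, 6.87 ± 0.621 and 3.28 ± 0.726 FPKM at stages 1, 2 and 3. Its log2 fold changes were -1.67 for stage 2 over stage 1, -0.89 for stage 3 over stage 2 and -2.56 for stage 3 over stage 1 (limma adjusted p = 4.65e-06, 0.000613 and 1.75e-07).

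**Figure D4:**
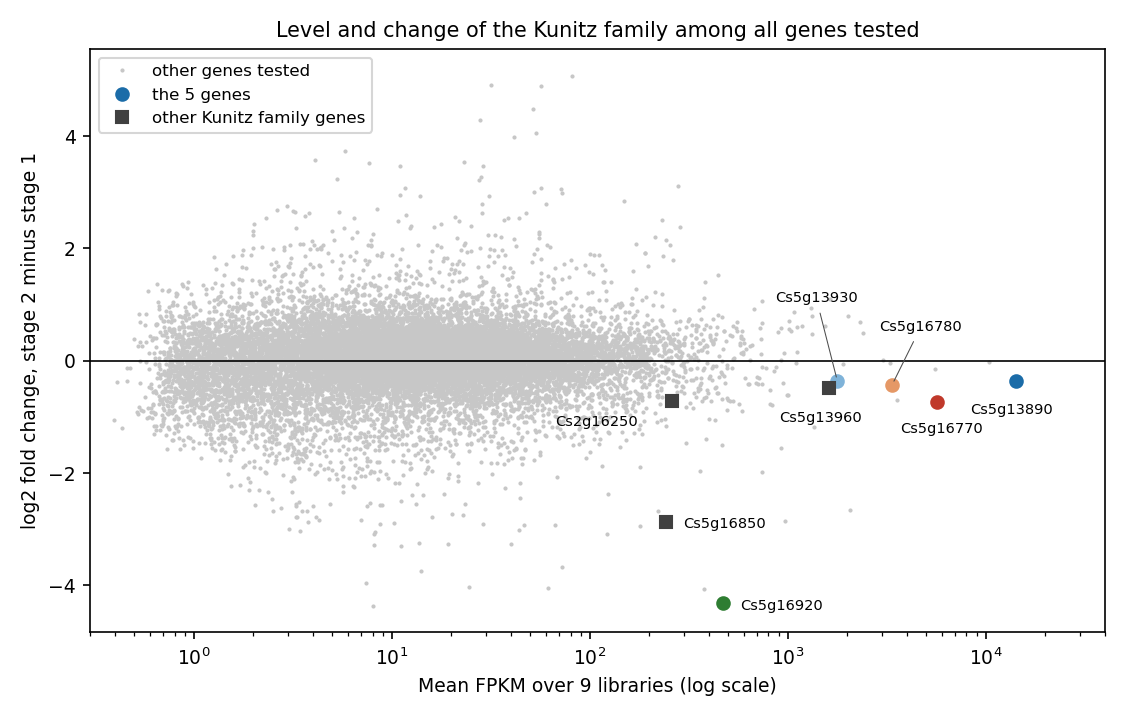
Mean FPKM over the 9 libraries (horizontal log axis) and log2 fold change of stage 2 over stage 1 (vertical axis) of the 17729 genes tested, with the 5 genes as large coloured points and the other Kunitz family genes as squares. The labelled genes lie at means of 243 to 14276 FPKM and all below the zero line, Cs5g16920 at -4.32 and Cs5g16850 at -2.87.

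Of the 25 other genes with a mean of at least 1000 FPKM, a limit chosen after the values were seen, 15 were called higher and 4 lower at stage 2 than at stage 1, beside 21.2% and 17.1% of all genes, and their median log2 fold change was 0.49. At stage 3 against stage 2, 9 of them were higher and 13 lower, beside 16.2% and 19.8% of all genes, and at stage 3 against stage 1, 13 were higher and 5 lower, beside 14.4% and 12.9%. The second most abundant transcript in each library, orange1.1t05560, also encodes an inhibitor by its match, similar to the inhibitor of trypsin and Hageman factor of pumpkin seeds, which belongs to another family than the Kunitz proteins, and it was named after its values were seen. It had 9989 ± 109 FPKM at stage 2 and 10213.5 ± 577 FPKM at stage 1, a log2 fold change of -0.03 with a 95% interval of -0.13 to 0.07 (limma adjusted p = 0.644). Cs9g15430, with the same match and likewise named after its values were seen, had 297 ± 22.5 FPKM at stage 2 and 618 ± 9.49 FPKM at stage 1, a log2 fold change of -1.06 (limma adjusted p = 2.13e-07).

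Inhibitors of other families were found by the words cystatin, cysteine proteinase inhibitor, serpin, Bowman-Birk and the like. Of 6 tested genes, 0 were higher and 4 lower at stage 2 than at stage 1, 2 higher and 0 lower at stage 3 than at stage 2, and 0 higher and 2 lower at stage 3 than at stage 1. The share called was 66.7% in the first of these comparisons, against 38.4% of all genes, and 33.3% in each of the others, close to the 36% and 27.3% of all genes. These 6 genes were less abundant than Cs5g16920 on average, with means of 15.4 to 303 FPKM. The words did not find orange1.1t05560, described above, which had a mean of 10399 FPKM. The cysteine proteinase inhibitor 5-like gene Cs3g05800 had 8.60 ± 2.87 FPKM at stage 2 and 21.7 ± 2.79 FPKM at stage 1, a log2 fold change of -1.27 (limma adjusted p = 0.00901). The serpin-ZX-like gene Cs3g24040 had 78.1 ± 4.49 FPKM at stage 3 and 57.6 ± 3.61 FPKM at stage 2, a log2 fold change of 0.43 (limma adjusted p = 0.000303). For Cs2g02100, a multicystatin-like gene, the log2 fold change of stage 3 over stage 1 was -0.42 (limma adjusted p = 0.00686).

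Proteases are the possible partners of such inhibitors, and subtilases are a large family of serine proteases of plants. Of 19 tested subtilases, 4 were higher and 3 lower at stage 2 than at stage 1, 4 higher and 2 lower at stage 3 than at stage 2, and 8 higher and 2 lower at stage 3 than at stage 1. The share called was 36.8% and 31.6% in the first and second of these comparisons, near the 38.4% and 36% of all genes, and at stage 3 against stage 1 42.1% of the subtilases were called higher, beside 14.4% of all genes. The subtilase gene Cs3g15800 had 268 ± 7.58 FPKM at stage 3 and 99.4 ± 8.99 FPKM at stage 2, a log2 fold change of 1.42 (limma adjusted p = 1.89e-08), and at stage 2 it was lower than at stage 1 with a log2 fold change of -0.68 (limma adjusted p = 7.02e-06). The subtilase gene orange1.1t05494 was higher at stage 2 than at stage 1, with a log2 fold change of 1.34 (limma adjusted p = 0.000831), and higher at stage 3 than at stage 1, with 1.04 (limma adjusted p = 0.00581). Cs1g17350 was the larger of the falls of stage 3 over stage 2 (-0.21, limma adjusted p = 0.0319) and Cs8g02780 that of stage 3 over stage 1 (-0.31, limma adjusted p = 0.000363).

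Of 15 tested cysteine proteases, 4 were higher and 4 lower at stage 2 than at stage 1, 2 higher and 4 lower at stage 3 than at stage 2, and 2 higher and 5 lower at stage 3 than at stage 1. The share called was 53.3%, 40% and 46.7% in these comparisons, beside 38.4%, 36% and 27.3% of all genes. The xylem cysteine proteinase 1-like gene orange1.1t02111 was higher at stage 2 than at stage 1 with a log2 fold change of 1.14 (limma adjusted p = 0.000135) and higher at stage 3 than at stage 1 with 0.78 (limma adjusted p = 0.00282). Its homologue orange1.1t05099 was lower at stage 2 than at stage 1 with -1.54 (limma adjusted p = 0.00406), at means of 0.61 and 3.66 FPKM. The metacaspase-4-like gene orange1.1t03237 was higher at stage 3 than at stage 2 with 0.32 (limma adjusted p = 0.00468). Cs2g27810, another xylem cysteine proteinase 1-like gene, was lower at stage 3 than at stage 2 with -0.99 (limma adjusted p = 0.0383) and lower at stage 3 than at stage 1 with -1.78 (limma adjusted p = 0.00214). Its means were only 3.58, 1.57 and 0.377 FPKM at stages 1, 2 and 3. At such low levels the added 1 FPKM makes log2 fold changes smaller.

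A further list held genes with matches to storage proteins of seeds (7S globulins and vicilins) and to oleosins, the coat proteins of oil bodies. Its 7 tested genes had means of at most 21.7 FPKM, the highest being that of the oleosin 1-like gene orange1.1t03751. Of the 7, 2 were higher and 3 lower at stage 2 than at stage 1, 3 higher and 2 lower at stage 3 than at stage 2, and 2 higher and 1 lower at stage 3 than at stage 1. The share called was 71.4%, 71.4% and 42.9% in these comparisons, beside 38.4%, 36% and 27.3% of all genes. The basic 7S globulin-like gene Cs9g06230 was higher at stage 2 than at stage 1 with a log2 fold change of 1.98 (limma adjusted p = 1.45e-05) and higher at stage 3 than at stage 1 with 1.38 (limma adjusted p = 0.000321). The means of Cs9g06230 were 0.53, 5.03 and 3.04 FPKM at stages 1, 2 and 3. The oleosin-like gene Cs2g27550 had a log2 fold change of -1.92 for stage 2 over stage 1 (limma adjusted p = 7.38e-05) and of 1.93 for stage 3 over stage 2 (limma adjusted p = 7.54e-05), at means of 6.17, 0.897 and 6.50 FPKM. Cs9g06150, a further 7S globulin-like gene, was lower at stage 3 than at stage 2 with -1.94 (limma adjusted p = 2.22e-05), and the vicilin-like gene Cs1g23800 was lower at stage 3 than at stage 1 with -1.49 (limma adjusted p = 0.000348).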

How the data were processed

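RNA was extracted from buds of 9 samples and sequenced on an Illumina Genome Analyzer. After quality filtering (FASTX-Toolkit), the authors aligned the reads against the genome of sweet orange by BWA, and the deposited values are FPKM per gene. For the counting program, the versions of the tools and the treatment of reads with several matches, an entry is not given in the sources used here. Lemon reads were thus mapped to another citrus species, and family members of near-identical sequence could share reads, so their separate levels are uncertain. Gene sequences were not used.

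A filter required 1 FPKM or more in 3 or more libraries, which 17729 of the 22353 genes passed, all 5 described genes among them. Their log2(FPKM + 1) values were fitted with limma and its trend option, with 1 mean per stage and no covariate. Tests were two-sided, with Benjamini-Hochberg adjustment over all genes tested at 0.05. The fold threshold of 2 is that of the study, which used NOISeq, a version of which was an alternative.

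The 5 genes and the gene lists were chosen with earlier results of these data known. Named genes are the 5, the family genes of higher mean than the lowest of the 5, the 3 largest called rises and falls among the other family genes, the 3 genes most like each of the 5, and in each other list the largest called rise and fall per comparison. Alternatives were limma without the trend, a pseudocount of 0.1, scaling by the median FPKM, quantile normalization, no filter, a filter at 5 FPKM, only the 6 libraries compared, the replicate number as a block, each library left out, and fewer list words. Software was limma 3.58.1 in R 4.3.3, and pandas 2.3.3, numpy 2.4.6 and matplotlib 3.10.9 in Python 3.11.15.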

Additional observations from a re-analysis of the deposited data

How the results depend on the processing

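Of the 13 comparisons tested for the 5 genes, 11 were called, and of their 99 values under the alternatives other than leaving out a library, 82 kept direction and call and 17 lost the call, all of them under quantile normalization or the NOISeq-style rule. Quantile normalization gave Cs5g13890 0 for stage 2 over stage 1 and 0 for stage 3 over stage 2, Cs5g13930 and Cs5g16770 0 for stage 3 over stage 2, and Cs5g16780 -0.079 for stage 2 over stage 1 and 0 for stage 3 over stage 1, and it left 2 of the 8 family genes called higher at stage 3 than at stage 2, against 4. Of all genes, quantile normalization called 2883 higher at stage 3 than at stage 2, against 2876 in the main fit. It gives genes of equal rank equal values by construction, and it called Cs5g13960 lower at stage 2 than at stage 1 (adjusted p = 0.0418). The NOISeq-style rule, which requires 2-fold, called none of the differences tested for the 5 genes, with log2 ratios for Cs5g13890 of -0.35 for stage 2 over stage 1 and 0.42 for stage 3 over stage 2, for Cs5g13930 of -0.36, -0.27 (stage 3 over stage 2) and -0.63 (stage 3 over stage 1), for Cs5g16770 of -0.73, 0.22 and -0.52, for Cs5g16780 of -0.43 for stage 2 over stage 1 and -0.36 for stage 3 over stage 1, and for Cs5g16920 of -0.79 for stage 3 over stage 2. Over all 22353 genes this rule marked 959 for stage 2 over stage 1, counting both directions. It marked 934 for stage 3 over stage 2 and 692 for stage 3 over stage 1. Among the 8 family genes this rule marked 0 higher and 0 lower for stage 3 over stage 2. It marked 2 lower for stage 2 over stage 1 and 3 lower for stage 3 over stage 1, of which 1 each time is Cs5g16920, whose difference was known when it was chosen and which is no test. The others were Cs5g16850 in both and Cs2g16250 in the second.

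Median scaling gave -4.39 for Cs5g16920 at stage 2 over stage 1 and moved the means of Cs5g13890 to 15535 FPKM at stage 1 and 11538 FPKM at stage 2, of Cs5g13930 to 2269 and 1675 FPKM, of Cs5g16770 to 7652 and 4367 FPKM, and, at stage 1, of Cs5g16780 to 4119 FPKM and of Cs5g16920 to 1349.95 FPKM. It also moved the share of higher genes among all those called for stage 2 over stage 1 to 44.4%, against 55.3% without it, and changed no call of the 5 genes. Leaving out each library in turn changed 1 call of the 5 genes, that of Cs5g16780 for stage 3 over stage 2, whose log2 fold change ranged between 0.037 and 0.13 (0.13 without stage 2 replicate 3). For Cs5g13960 the stage 3 over stage 2 call was also lost without the trend (adjusted p = 0.0862), without a filter (0.0710), with the 6 libraries alone (0.0616) and with the block (0.0612), and for Cs2g16250 without the trend (0.0678).

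Whether libraries with the same replicate number came from the same group of trees is not stated. Deviations of same-numbered libraries from their stage means had correlations of -0.10 to 0.03, which cannot decide this with 3 libraries per stage. With the replicate number as a block, 6360, 5910 and 4432 genes were called for stage 2 over stage 1, stage 3 over stage 2 and stage 3 over stage 1, against 6800, 6390 and 4845 without it, and no call of the 5 genes changed. Both genes similar to the inhibitor of trypsin and Hageman factor, chosen after the data were seen, were called higher at stage 3 than at stage 2. Adding them gave 4 of 8 tested other inhibitors called higher in this comparison, against 2 of 6, beside 16.2% of all genes. The larger count therefore follows from the choice of the added genes. The paper gives the depth in reads only as an approximate number for all replicates alike, so no counting intervals are given. Groups of 3 libraries allow no test for a library that stands apart.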
